A study of Homo sapiens with 25 samples.

Results

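The 10 genes described here are core members of the BCL2 family, which decides whether a cell's mitochondria release the proteins that start apoptosis. They were taken by gene symbol from a list of family members, chosen with earlier results of these data known. All 10 were found among the 31919 genes of the deposited table. They comprised 3 pro-survival genes (BCL2, BCL2L1 and MCL1), 5 BH3-only genes (BCL2L11, BID, BBC3, PMAIP1 and BMF) and 2 effectors (BAX and BAK1). All 10 were well above the minimum level for testing in every library, with the lowest single value 223 normalized counts for BBC3.

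BCL2 family proteins meet at the outer membrane of the mitochondrion. The effectors BAX and BAK1 open pores there through which cytochrome c leaves, the pro-survival proteins bind and restrain them, and the BH3-only proteins, named after the short helix they share, either occupy the pro-survival proteins or activate the effectors directly. Much of the control acts on the proteins: BID is activated by cleavage downstream of death receptors, and MCL1 protein turns over quickly. In T cells, the BH3-only protein BIM, encoded by BCL2L11, is known for the deletion of self-reactive thymocytes in mice, and BCL2 and MCL1 for keeping lymphocytes alive.

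DND-41 is a human line derived from T-cell acute lymphoblastic leukaemia. The study asked how its transcriptome responds when histidine, an essential amino acid, is lowered in the medium, and sequenced strand-specific libraries of total RNA in 9 groups, 25 libraries in all. On day 6 there were 3 libraries without histidine, 3 at 12.5%, 2 at 25%, 3 at 50% and 3 in full medium (100% histidine), and on day 9 there were 3 libraries at 12.5%, 3 at 25%, 2 at 50% and 3 in full medium. No agent or genetic change other than the histidine level is named in the labels, and all groups share the same line. Nothing in the labels says whether the replicates of a group were grown apart, so each p-value rests on spread that could be technical. Replicate 1 without histidine carries day 6 in its title and day 9 in its time label, and it was kept at day 6. The series text names days 3 and 6, and days are given here as in the sample labels.

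Values are the authors' normalized counts, reads per gene scaled to make libraries comparable. Library totals on day 6, in M (mega) normalized counts, were between 13.65 and 14.96 without histidine and between 13.57 and 14.83 at 12.5%. Those ranges lay wholly below full medium, at 15.32 to 15.58. Totals of the other restricted groups overlapped full medium of the same day. The part of the totals in the members' changes was not tested directly. Of 15 T-lineage markers, 14 were expressed, with CD3E at 11530 normalized counts or more in each library, while PTCRA, the pre-T-cell receptor alpha chain, stayed under 10 in all 25. Some libraries carried epithelial transcripts. Over the 6 epithelial markers in the table, the summed level reached between 0 and 15.7 without histidine, between 5.44 and 61.4 at 12.5%, between 0.794 and 1.72 at 25%, between 3.36 and 1225 at 50% and between 3.44 and 1455 in full medium on day 6. On day 9 the same sum lay between 11.6 and 12.0 at 12.5%, between 5.48 and 1462 at 25%, between 1.68 and 56.4 at 50% and between 2.53 and 17.7 in full medium. Keratins made up nearly all of it, EPCAM was under 10 in 24 libraries, and the 6 libraries with a keratin sum over 100 were replicates 1 and 2 at 50% and in full medium on day 6 and replicates 1 and 3 at 25% on day 9. The sum of the 4 B-cell markers counted also differed between histidine levels, in both directions. CD79A made up most of it (median 14950 normalized counts over libraries). BLK (median 1773) and EBF1 (median 298) were expressed in every library, and PAX5 was near 0. On day 6 their sum was between 10731 and 14462 without histidine, between 12681 and 18624 at 12.5%, between 21789 and 23832 at 25% and between 13748 and 17226 at 50%, against between 16913 and 18586 in full medium. On day 9 it was between 11294 and 13117 at 12.5%, between 20877 and 24891 at 25% and between 19102 and 21557 at 50%, against between 16149 and 19745 in full medium. It was wholly lower than full medium without histidine on day 6 and at 12.5% on day 9, and wholly higher at 25% on both days, and its part in the members' changes was not tested. Levels of 5.8S ribosomal RNA ran between 74.8 and 88.2 normalized counts at 12.5% and between 153 and 1181 in full medium on day 6. In bulk RNA such as this, fewer cells of a kind and less RNA per cell cannot be told apart.

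Promoter windows from RefSeq, 250 bases before to 50 after an annotated start on GRCh38.p14, were found for 9 of the 10 members, in 15 windows. A window of each of the 3 members that passed the test at 12.5% histidine on day 6 is shown, since the rest of the description turns on these genes. BID has 5 windows and BCL2L1 has 2, and of each gene's windows 1 with a motif to be marked was picked after the motif search. Capitals mark a forkhead motif (GTAAACA) and an inverted CCAAT box in BCL2L11, an E-box (CACGTG) in BID and an E2F-like motif (TTTNNCGC) in BCL2L1. The windows lie at chr2:111120664-111120963 on the plus strand for BCL2L11, chr22:17773934-17774233 on the minus strand for BID and chr20:31723914-31724213 on the minus strand for BCL2L1.
BCL2L11: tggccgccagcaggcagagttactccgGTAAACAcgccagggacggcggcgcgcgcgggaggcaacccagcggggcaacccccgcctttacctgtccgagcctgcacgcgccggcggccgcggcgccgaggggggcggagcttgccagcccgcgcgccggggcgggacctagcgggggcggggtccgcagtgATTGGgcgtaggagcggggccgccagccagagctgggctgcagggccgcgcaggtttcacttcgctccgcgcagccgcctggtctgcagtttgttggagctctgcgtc
BID: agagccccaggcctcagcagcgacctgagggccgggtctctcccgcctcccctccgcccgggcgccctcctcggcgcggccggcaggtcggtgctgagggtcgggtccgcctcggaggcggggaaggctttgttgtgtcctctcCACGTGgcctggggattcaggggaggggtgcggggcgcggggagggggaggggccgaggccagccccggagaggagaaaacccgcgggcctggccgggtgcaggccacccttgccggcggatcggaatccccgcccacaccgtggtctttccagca
BCL2L1: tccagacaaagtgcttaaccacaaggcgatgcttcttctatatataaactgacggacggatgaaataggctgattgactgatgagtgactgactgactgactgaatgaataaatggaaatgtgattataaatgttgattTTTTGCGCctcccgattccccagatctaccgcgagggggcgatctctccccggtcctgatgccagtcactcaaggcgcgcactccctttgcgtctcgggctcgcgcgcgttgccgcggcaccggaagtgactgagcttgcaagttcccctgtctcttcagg

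Both strands of the windows were searched for 7 motifs. The forkhead motif GTAAACA, which FOXO factors can bind, stood in 1 of the 9 members, at position -223 from the BCL2L11 start, and in 3.42% of 34943 promoter windows of all genes. The E-box CACGTG stood in 3 of the 9 (BID, BAX and BBC3) and in 7.23% of all windows, with 4 copies in the BAX window. CCAAT was found in 5 of the 9 (34.6% of all windows), the E2F-like TTTNNCGC in BCL2L1 alone (6.85%) and the CRE-like TGACGT in PMAIP1 alone (7.97%). The TGATGNAA letters of the composite element read by ATF4 with its partners were in none of the 9, against 3.62% of all windows. GGGCGG, a GC box, was in 7 of the 9 (44.9%) and was not put in capitals. Hits of different motifs did not share bases, and the shares are counted per window, of which BID has 5 and most members 1. These are matches of letters only.

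Across all levels and days the 10 genes moved by small amounts. The span between the highest and lowest of the 9 group means was 1.14 on the log2 scale for BID, 0.70 for BCL2L1, 0.70 for BCL2L11 and 0.31 for BCL2. All changes below are differences of log2(normalized count + 1), with a standard error and a Benjamini-Hochberg adjusted p from limma's moderated test across 18799 genes. Without histidine 1 of the 10 members passed the threshold of 0.05 on day 6, where 29.8% of all genes tested did. At 12.5% histidine 3 of 10 passed on day 6, against 27% of all genes, and 2 of 10 on day 9, against 20.8%. At 25% histidine 2 of 10 passed on day 6, against 13.7% of all genes, and 5 of 10 on day 9, against 18.2%. At 50% none passed on either day by limma, where 0% of all genes passed on day 6 and 0.00532% on day 9. With an unadjusted p under 0.05 there were 0 members at 50% on day 6, against 3.7% of all genes, and 1 on day 9, BCL2L11, against 4.82%. Apart from the 5 of 10 at 25% on day 9, the members' shares were near or below those of all genes, and 3 of those 5 calls depended on single libraries, as given with each gene. Median changes of the 10 members were 0.05 without histidine, -0.13 at 12.5% and 0.05 at 25% on day 6, and 0.02 at 12.5% and -0.02 at 25% on day 9, beside medians of all genes of 0.03, 0.04, 0.00, 0.03 and 0.00.

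**Figure D1:**
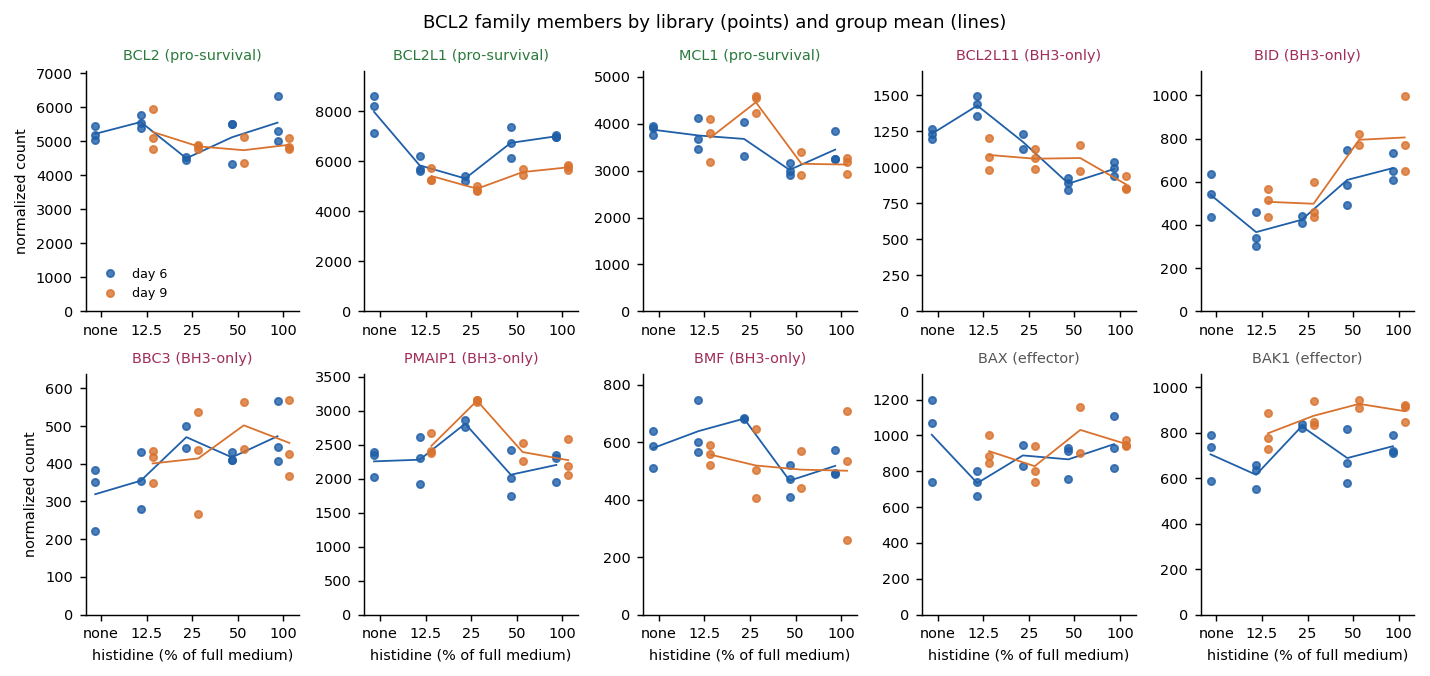
Normalized counts (vertical axes, starting at 0) of the 10 BCL2 family genes against histidine level in percent of full medium, with 1 point per library, lines joining group means, blue for day 6 and orange for day 9. BID is lowest at 12.5% on day 6 (302 to 461), BCL2L11 is highest there (1354 to 1493), and BCL2L1 is highest without histidine (7121 to 8585).

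Among the pro-survival genes, BCL2L1 moved most. BCL2L1 encodes BCL-XL and, by splicing, the pro-death short form BCL-XS, which a table per gene does not separate. On day 6 it stood at 7121, 8585 and 8202 normalized counts without histidine, at 5621, 5678 and 6199 at 12.5%, at 5423 and 5192 at 25%, at 6709, 7362 and 6118 at 50%, and at 6969.8, 7031 and 6982 in full medium. The 12.5% and 25% libraries lay wholly below full medium and those without histidine wholly above it, while those at 50% overlapped it. BCL2L1 fell by 0.26 ± 0.08 (SE) at 12.5% (0.833-fold, adjusted p = 0.0128, n = 3 and 3, limma) and by 0.40 ± 0.09 at 25% (0.759-fold, adjusted p = 0.00247, n = 2 and 3, limma). Without histidine the difference from full medium was 0.18 ± 0.08, with an adjusted p of 0.0755 by limma and a 95% interval from 0.02 to 0.34. It passed in 4 of 18 alternatives, upper-quartile scaling (0.26, adjusted p = 0.00372), quantile normalization (0.32, adjusted p = 7.19e-05), library weights (0.22, adjusted p = 0.00973) and without replicate 1 of the group without histidine (0.26, adjusted p = 0.0146), and its highest adjusted p was 0.313. Set directly against 12.5%, where 15.3% of all genes and 2 of the 10 members passed, BCL2L1 was higher without histidine by 0.45 ± 0.08 (1.36-fold, adjusted p = 0.000256, limma), and this call held in all 18 alternative settings.

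The 12.5% call on BCL2L1 was less firm. It was lost without replicate 1 or replicate 2 at 12.5% (adjusted p = 0.0553 and 0.0521 by limma), under quantile normalization, and when the keratin-high libraries were left out (adjusted p = 0.152), which leaves 1 library in full medium on day 6. Over the 18 alternatives its adjusted p ranged between 0.00053 and 0.152. At 25% the call was lost without replicate 3 at 25% (adjusted p = 0.0502) and when the keratin-high libraries were left out (adjusted p = 0.0746), with a range over 17 alternatives up to 0.0746.

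On day 9 the mean of BCL2L1 was lower in each of the 4 groups than in the group of the same level on day 6. It stood at 5715, 5255 and 5246 normalized counts at 12.5%, at 4823, 5006 and 4862 at 25%, at 5682 and 5443 at 50% and at 5627, 5849 and 5783 in full medium. The 25% libraries lay below all of full medium, and BCL2L1 fell there by 0.23 ± 0.08 (adjusted p = 0.0370, limma). Leaving out any of the 6 libraries of this comparison ended the call, with adjusted p between 0.0601 and 0.102, as did no filter, no mean trend, the 5.8S covariate and leaving out the keratin-high libraries, so that 8 of 18 alternatives kept it. In full medium the day 9 level differed from day 6 by -0.28 ± 0.08 (adjusted p = 0.0547, limma; passed in 5 of 18 alternatives, over a range between 0.0038 and 0.447), where 2.17% of all genes and none of the 10 members passed. BCL2L1 and BAK1 had an unadjusted p under 0.05 there, 2 of 10 members, against 15.6% of all genes. The slope over 100, 50, 25 and 12.5% was -0.11 ± 0.02 per halving of histidine on day 6 (adjusted p = 0.00114, limma) and -0.05 ± 0.02 on day 9 (adjusted p = 0.185). The day 6 slope was lost only without the keratin-high libraries (adjusted p = 0.0829) among 23 alternatives.

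MCL1, a short-lived pro-survival protein, went the other way at 25% on day 9. It reached 4585, 4562 and 4236 normalized counts there, against 3269, 2932 and 3195 in full medium. The groups did not overlap, and MCL1 rose by 0.51 ± 0.10 (1.42-fold, adjusted p = 0.000682, n = 3 and 3, limma), a call that held in all 18 alternatives. At 12.5% on day 9 the libraries held 4108, 3813 and 3191 and overlapped full medium, with a difference of 0.24 ± 0.10 (adjusted p = 0.0992, limma). Without replicate 3 at 12.5%, the lowest of that group, the difference was 0.34 (adjusted p = 0.0252), it also passed under quantile normalization (adjusted p = 0.0207), and over 18 alternatives the adjusted p ranged between 0.021 and 0.35. Over the 4 levels of day 9 the fitted slope of MCL1 was 0.12 ± 0.03 per halving (adjusted p = 0.00587, limma). For this slope 27.3% of all genes and 3 of the 10 members passed. The rise was not graded, since group means were 3132 in full medium, 3148 at 50%, 4461 at 25% and 3704 at 12.5%.

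On day 6 MCL1 had 3754, 3911 and 3961 normalized counts without histidine, 3458, 4130.5 and 3668 at 12.5%, 4043 and 3314 at 25%, 3168, 2898 and 2987 at 50% and 3839, 3257 and 3255 in full medium. Only the 50% libraries lay apart, below full medium, and none of these differences passed. The change at 25% was larger on day 9 than on day 6 by 0.42 ± 0.15, which did not pass (adjusted p = 0.691, limma; unadjusted p = 0.00973), in a comparison where 0.00532% of all genes and none of the members did. MCL1 was the 1 member with an unadjusted p under 0.05 in it, against 5.5% of all genes. The B-cell marker sum was also higher at 25% than in full medium, as given above.

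BCL2, the founding pro-survival member, changed least. Group means on day 6 were 5216 ± 202 (SD, n = 3) normalized counts without histidine, 5563 ± 202 at 12.5% (n = 3), 4497 ± 56.2 at 25% (n = 2), 5115 ± 675 at 50% (n = 3) and 5545 ± 685 in full medium (n = 3). On day 9 they lay between 4735 and 5273. The 2 libraries at 25% on day 6, with 4537 and 4458, were below the 5006 to 6315 of full medium. That difference was -0.29 ± 0.11 and did not pass (adjusted p = 0.0823, limma), with a 95% interval from -0.52 to -0.07.

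Among the BH3-only genes, BCL2L11 was higher than in full medium at 25% histidine or less on both days. BCL2L11 encodes BIM, which binds every major pro-survival member and can activate BAX and BAK1. On day 6 its libraries held 1269, 1234 and 1194 normalized counts without histidine, 1441, 1493 and 1354 at 12.5%, 1229 and 1126 at 25%, 845, 891 and 925 at 50%, and 1034, 938 and 992 in full medium. The first 3 levels lay wholly above full medium and the 50% libraries wholly below it. BCL2L11 rose by 0.32 ± 0.09 without histidine (1.25-fold, adjusted p = 0.00808, limma) and by 0.53 ± 0.09 at 12.5% (1.45-fold, adjusted p = 0.000102, limma). At 25% the difference was 0.25 ± 0.10 (adjusted p = 0.100) and at 50% it was -0.16 ± 0.09 (adjusted p = 1.00), neither of which passed. With library weights the 25% difference passed (0.26, adjusted p = 0.0381), the only alternative of 17 in which it did.

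The rise of BCL2L11 at 12.5% on day 6 held in all 18 alternatives, with changes between 0.49 and 0.62. The rise without histidine was lost only without the keratin-high libraries, where the change was 0.31 with an adjusted p of 0.135. Per halving of histidine on day 6 BCL2L11 rose by 0.20 ± 0.03 (adjusted p = 1.08e-05, limma), where 28.9% of all genes and 3 of the 10 members passed, and this slope held in all 23 alternatives. Between no histidine and 12.5% the difference was -0.21 ± 0.09, and although the libraries did not overlap it did not pass (adjusted p = 0.114, limma), other than with library weights (adjusted p = 0.0232).

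On day 9 BCL2L11 had 1074, 1205 and 979 normalized counts at 12.5%, 1128, 987 and 1066 at 25%, 972 and 1157 at 50%, and 941, 854 and 853 in full medium. Every restricted library was above every library in full medium. Group means were 883 in full medium, 1065 at 50%, 1060 at 25% and 1086 at 12.5%, with no graded rise among the restricted levels. The change at 50% was 0.27 and did not pass. BCL2L11 rose by 0.30 ± 0.09 at 12.5% (adjusted p = 0.0193, limma) and by 0.26 ± 0.09 at 25% (adjusted p = 0.0413, limma). The 12.5% call was lost without replicate 2 at 12.5% (change 0.22, adjusted p = 0.129) and without replicate 2 or 3 in full medium (adjusted p = 0.0706 and 0.0734), and in a fit on the compared groups (adjusted p = 0.0537). The 25% call was lost without replicate 1 or 3 at 25% (adjusted p = 0.165 and 0.0930), without replicate 2 or 3 in full medium (adjusted p = 0.123 and 0.133) and when the keratin-high libraries were left out (change 0.16, adjusted p = 0.588), which leaves 1 library at 25%. It was also lost with no filter, quantile normalization, no mean trend, the 5.8S covariate and only the compared groups (adjusted p between 0.0528 and 0.0841), so that 8 of 18 alternatives kept it. Its slope on day 9 was 0.09 ± 0.03 per halving (adjusted p = 0.0230, limma) and was lost without replicate 2 at 12.5%, replicate 1 at 50% or replicate 2 or 3 in full medium, when the keratin-high libraries were left out and in a fit on the compared groups, with adjusted p between 0.0506 and 0.129. The 12.5% change was smaller on day 9 than on day 6 by 0.24 ± 0.13, which did not pass (adjusted p = 0.545, limma), in a comparison where 0.0638% of all genes and none of the members did, and where 0 members had an unadjusted p under 0.05, against 10% of all genes.

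BID moved most of the 10 genes and in the opposite direction. BID links death receptors to mitochondria: caspase-8 cleaves it to a fragment that activates BAX and BAK1. On day 6 it stood at 436, 545 and 638 normalized counts without histidine, at 302, 338 and 461 at 12.5%, at 441 and 408 at 25%, at 584, 748 and 495 at 50% and at 732, 609 and 649.8 in full medium. The 12.5% and 25% libraries lay wholly below full medium, while those without histidine and at 50% overlapped it. BID fell by 0.87 ± 0.18 at 12.5% (0.546-fold, adjusted p = 0.000876, limma) and by 0.64 ± 0.20 at 25% (0.641-fold, adjusted p = 0.0356, limma). Without histidine the difference from full medium was -0.31 ± 0.18 (adjusted p = 0.216, limma), with a 95% interval from -0.68 to 0.06.

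The fall of BID at 12.5% held in all 18 alternatives, with changes between -1.05 and -0.74. At 25% the call was lost without either 25% library (adjusted p = 0.117 and 0.211), without replicate 1 or 3 in full medium (adjusted p = 0.118 and 0.0681), with no mean trend (adjusted p = 0.0702) and when the keratin-high libraries were left out (adjusted p = 0.231). No histidine gave higher BID than 12.5% by 0.56 ± 0.18 (1.48-fold, adjusted p = 0.0371, limma), although the libraries overlapped. That call was lost without replicate 1 or 2 at 12.5% (adjusted p = 0.174 and 0.124) or replicate 2 or 3 without histidine (adjusted p = 0.101 and 0.197), with no mean trend (adjusted p = 0.0703) and in a fit on the compared groups (adjusted p = 0.0901).

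On day 9 BID had 518, 437 and 567 normalized counts at 12.5%, 599, 461 and 435 at 25%, 821 and 768 at 50% and 648, 995 and 772 in full medium. The 12.5% and 25% libraries again lay below full medium and the 50% libraries within its range. BID fell by 0.65 ± 0.18 at 12.5% (0.637-fold, adjusted p = 0.0116, limma) and by 0.68 ± 0.18 at 25% (0.623-fold, adjusted p = 0.00937, limma). Without replicate 2 in full medium, the highest library at 995, the changes were -0.49 at 12.5% (adjusted p = 0.0904) and -0.52 at 25% (adjusted p = 0.0763). The 12.5% call was also lost without replicate 2 at 12.5% (adjusted p = 0.0663), and the 25% call without replicate 3 at 25% (adjusted p = 0.0506) and when the keratin-high libraries were left out (adjusted p = 0.0758). Per halving, BID fell by 0.31 ± 0.06 on day 6 (adjusted p = 0.000239, limma) and by 0.26 ± 0.06 on day 9 (adjusted p = 0.00130, limma), and both slopes held in all 23 alternatives.

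PMAIP1 encodes NOXA, which binds MCL1. At 25% histidine it reached 2857 and 2759 normalized counts on day 6, against 2354, 1953 and 2297 in full medium, and 3149.8, 3162 and 3128 on day 9, against 2048, 2579 and 2187 in full medium. Neither pair of groups overlapped. PMAIP1 rose by 0.48 ± 0.12 on day 9 (1.39-fold, adjusted p = 0.00575, limma), a call lost only without the keratin-high libraries (adjusted p = 0.0873) among 18 alternatives. On day 6 the difference was 0.36 ± 0.13 and did not pass (adjusted p = 0.0788, limma), but it did with upper-quartile scaling, library weights and only the compared groups (adjusted p = 0.0234, 0.0123 and 0.0202), 3 of 17 alternatives with a range up to 0.41. The other levels overlapped full medium, with group means between 2057 and 2278 on day 6 and between 2391 and 2482 on day 9.

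BBC3 encodes PUMA, which binds the pro-survival members. It had 223, 384 and 351 normalized counts without histidine, 279, 431 and 355 at 12.5%, and 566, 407 and 446 in full medium on day 6. The libraries without histidine lay below full medium, but the difference of -0.59 ± 0.23 did not pass (adjusted p = 0.0514, limma; 95% interval from -1.06 to -0.12). With 5.8S ribosomal RNA as a covariate the difference was -0.97 (adjusted p = 0.000979) without histidine and -1.03 (adjusted p = 0.00399) at 12.5%, where it was -0.42 ± 0.23 (adjusted p = 0.179) in the fit without covariate. Without replicate 2 of either group the difference without histidine also passed (adjusted p = 0.0291 and 0.0481). It passed too with a pseudocount of 8, a filter at 50 and only the compared groups (adjusted p = 0.0484, 0.0404 and 0.0476). Over 18 alternatives its adjusted p ranged between 0.00098 and 0.29. At 12.5% on day 6 the 5.8S levels lay wholly below full medium, so covariate and histidine level cannot be told apart there.

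BMF, a BH3-only protein known to be held at myosin motors of the cytoskeleton, passed in no comparison. Its group means on day 6 were 579.7 ± 65.3 (SD, n = 3) normalized counts without histidine, 639 ± 96.8 at 12.5% (n = 3), 683 ± 3.17 at 25% (n = 2), 467 ± 56.7 at 50% (n = 3) and 518 ± 47.3 in full medium (n = 3). On day 9 its full-medium libraries spread between 259.6 and 709.6, wider than any difference between its groups.

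The effectors did not pass in any comparison with full medium. BAX had 660.1, 739.9 and 801 normalized counts at 12.5% on day 6, against 1107, 817 and 929 in full medium. BAK1 had 552, 656 and 637 at 12.5%, against 712, 721 and 789 in full medium. Both groups of 12.5% libraries lay below full medium. The differences were -0.37 ± 0.15 for BAX (adjusted p = 0.0724, limma; 95% interval from -0.68 to -0.06) and -0.27 ± 0.12 for BAK1 (adjusted p = 0.0964, limma; 95% interval from -0.51 to -0.03). For BAX the difference passed without replicate 2 in full medium (-0.47, adjusted p = 0.0410). It passed too with the 5.8S covariate (-0.64, adjusted p = 0.0166) or library weights (-0.33, adjusted p = 0.0342). Over 18 alternatives its adjusted p ranged between 0.017 and 0.32. The limit given above for the 5.8S covariate at 12.5% on day 6 holds for BAX too. Without histidine BAX held 741, 1070.0 and 1199.5, higher than at 12.5% by 0.43 ± 0.15, which did not pass (adjusted p = 0.0557, limma). It passed without replicate 1 of the group without histidine (0.63, adjusted p = 0.00283) or replicate 3 at 12.5% (0.49, adjusted p = 0.0489), and with a filter at 50, upper-quartile or quantile scaling, library weights or the 5.8S covariate (adjusted p between 0.0048 and 0.0456), in a range between 0.0028 and 0.30. On day 9 the group means of BAX lay between 828 and 1031, and those of BAK1 between 798 and 927.

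**Figure D2:**
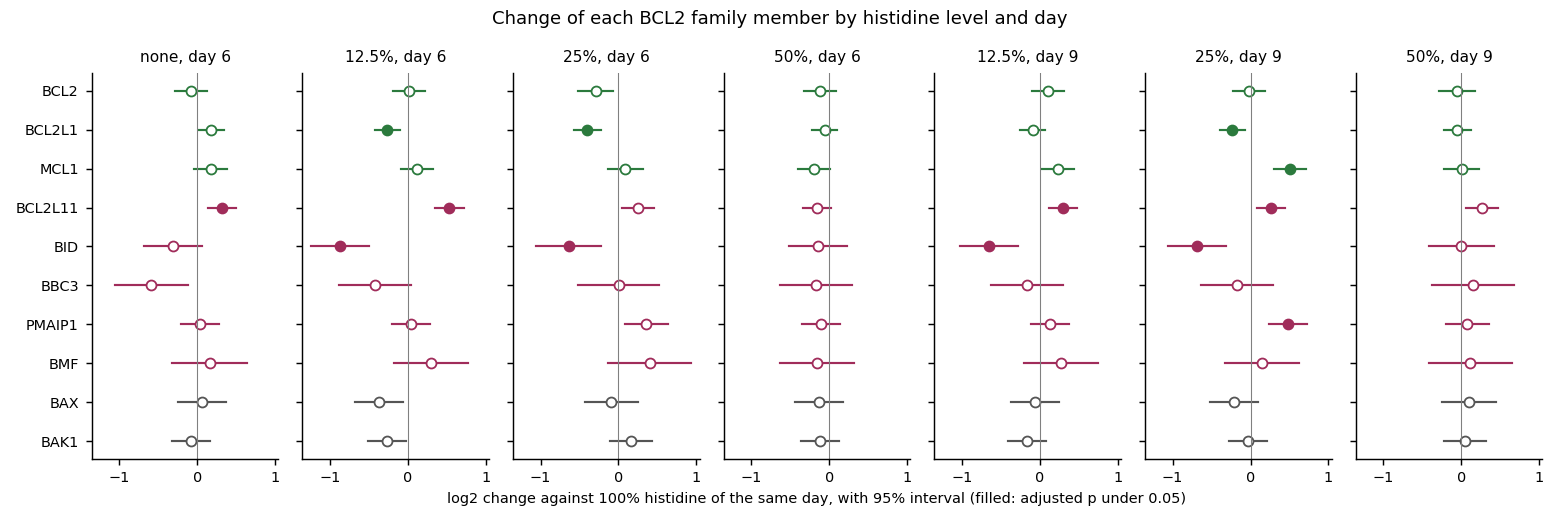
Log2 change against full medium of the same day (horizontal axes) for the 10 genes, with 1 panel per histidine level and day, points for estimates, bars for 95% intervals and filled points for adjusted p under 0.05. Pro-survival genes are green, BH3-only genes red and effectors grey, and BID at 12.5% on day 6 (-0.87) is the farthest point from 0.

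By role, the calls were mixed in direction in each comparison that had more than 2. At 12.5% on day 6 there was 1 fall among 3 pro-survival genes, and 1 rise and 1 fall among 5 BH3-only genes, with medians of 0.01 and 0.04. Of all genes 11.7% rose and 15.3% fell in that comparison, a share of rises among calls of 43.3% that became 55.6% under upper-quartile scaling, and 9.4% rose and 8.76% fell at 25% on day 9. At 25% on day 9 there was 1 rise and 1 fall among the pro-survival genes, and 2 rises and 1 fall among the BH3-only genes, with medians of -0.01 and 0.14. The 7 pro-death genes had medians of 0.04 without histidine, -0.27 at 12.5% and 0.16 at 25% on day 6, and -0.07 at 12.5% and -0.03 at 25% on day 9.

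Ratios of a pro-death gene to a pro-survival partner were taken within each library as differences of log2 values. Counts are not scaled to gene length, so only shifts of a ratio between groups are read, and the ratios were not tested. BCL2L11 over BCL2 was higher than in full medium by 0.40 without histidine, 0.52 at 12.5% and 0.55 at 25% on day 6, with no overlap of libraries. On day 9 the shifts were 0.19 at 12.5%, 0.28 at 25% and 0.32 at 50%, again with no overlap. Without the keratin-high libraries, which leaves 1 library in full medium on day 6, the day 6 shifts were 0.25, 0.37 and 0.40, and the 25% shift on day 9, which then rests on 1 library at 25%, was 0.16. At 50% on day 6 the ratio spread between -2.70 and -2.28, across the -2.61 to -2.33 of full medium. Of the 8 ratios examined, BCL2L11 over BCL2 was the only ratio clear of full medium in the same direction in 6 of the 7 comparisons. The comparisons of a day share the same full-medium libraries, and how often other gene pairs lie apart in these groups was not counted. At 25% on day 6 neither BCL2L11 nor BCL2 passed on its own. BCL2L11 over MCL1 overlapped full medium without histidine, at 25% and 50% on day 6 and at 12.5% on day 9.

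BID over BCL2L1 moved the other way. It was lower than in full medium by 0.49 without histidine, 0.61 at 12.5% and 0.24 at 25% on day 6, and by 0.56 at 12.5% on day 9, each with no overlap. At 25% on day 9 the ratio was lower by 0.45 with overlap. At 12.5% and 25% BID fell by more than BCL2L1 on both days. Without histidine neither gene passed on its own, with changes of -0.31 for BID and 0.18 for BCL2L1. BAK1 over MCL1 was lower by 0.39 at 12.5% on day 6 and by 0.41 at 12.5% and 0.55 at 25% on day 9, without overlap. BCL2L11 over MCL1 was higher by 0.41 at 12.5% on day 6 but lower by 0.25 at 25% on day 9, where MCL1 rose more than BCL2L11. BBC3 over BCL2 was lower without overlap by 0.51 without histidine and by 0.43 at 12.5% on day 6. At 25% on day 6, with 2 libraries, 5 of the 8 ratios were higher without overlap and 1 was lower. The share of other gene pairs that lie apart in this comparison was not counted, so the count is a description only. BCL2L11, BBC3 and BMF over BCL2 were among the 5. They share BCL2, which lay below full medium in those libraries, so they are not separate observations. The shift of 0.70 for BMF over BCL2 was the largest of all comparisons with full medium.

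**Figure D3:**
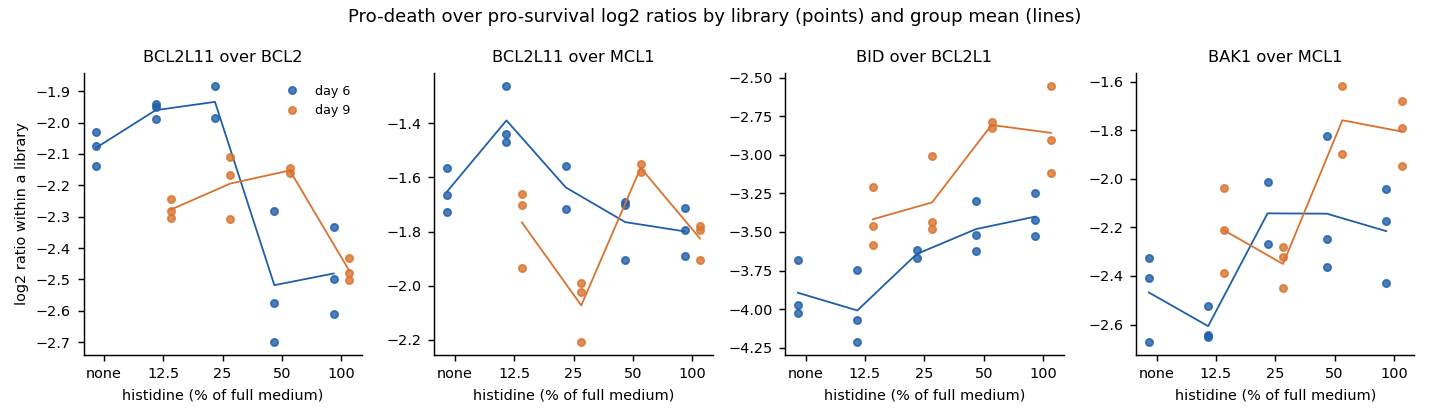
Log2 ratio of a pro-death to a pro-survival gene within a library (vertical axes, not starting at 0) against histidine level in percent of full medium, with 1 point per library, lines joining group means, blue for day 6 and orange for day 9. BCL2L11 over BCL2 is above the full-medium libraries in the groups at 25% or less on both days.

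The genes around the family were counted from lists drawn up for their roles. Of all genes tested 13.3% rose and 16.5% fell without histidine, and 9.35% rose and 11.5% fell at 12.5% on day 9. In the apoptosome and caspase list, 2 of 13 genes passed without histidine, 3 at 12.5% on day 6 and 4 at 12.5% on day 9. CASP9, the initiator caspase activated by released cytochrome c, rose by 1.23 ± 0.21 without histidine, to 297 ± 48.1 normalized counts against 128 ± 34.1 in full medium (SD, n = 3 each; adjusted p = 9.3e-05, limma). APAF1, the scaffold that assembles with cytochrome c, rose by 0.54 ± 0.12 at 12.5% on day 6 (adjusted p = 0.0019), and ENDOG, a mitochondrial nuclease, fell by 0.78 ± 0.15 there (adjusted p = 0.00042, limma). DIABLO, whose product is released with cytochrome c and blocks the inhibitors of caspases, rose by 0.69 ± 0.16 at 12.5% on day 9 (adjusted p = 0.0035, limma).

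Of 5 caspase inhibitors 2 passed without histidine, in opposite directions. BIRC5, survivin, which is also a mitotic protein, fell by 1.09 ± 0.17 (adjusted p = 2.3e-05, limma), and XIAP, a direct caspase inhibitor, rose by 0.39 ± 0.09 (adjusted p = 0.0014, limma). At 12.5% 2 rose on day 6 and none passed on day 9. Of 3 outer membrane channels VDAC1 fell at 12.5% on both days, by 0.52 ± 0.11 on day 9 (adjusted p = 0.0015, limma). Its day 6 fall was lost when the keratin-high libraries were left out (adjusted p = 0.0619) and with the 5.8S covariate (adjusted p = 0.0577). Of 7 tested genes among 12 other BCL2 family members, BCL2L12 was the only gene that passed in any of these 3 comparisons, and it rose by 0.64 ± 0.14 at 12.5% on day 9 (adjusted p = 0.0016, limma).

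In the death receptor list 3 of 10 genes rose and 1 fell without histidine, none passed at 12.5% on day 6, and 2 rose and 1 fell at 12.5% on day 9. FAS, a death receptor that acts through caspase-8 and BID, fell by 2.23 ± 0.39 without histidine, to 55.0 ± 32.0 normalized counts against 251 ± 117 in full medium (SD, n = 3 each; adjusted p = 0.00011, limma). TNFRSF1A, the main receptor of tumour necrosis factor, rose by 0.48 ± 0.12 (adjusted p = 0.0029, limma). Among 8 genes that stabilize, degrade or tether family members, BAG3, a chaperone partner that binds BCL2, fell by 0.55 ± 0.09 without histidine, by 0.62 ± 0.09 at 12.5% on day 6 and by 0.81 ± 0.09 at 12.5% on day 9 (adjusted p = 7.8e-05, 4e-05 and 1.6e-06, limma).

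Of 9 transcription factors known in other settings to induce family members, 2 rose and 3 fell without histidine, and 3 rose and 2 fell at 12.5% on each day. JUN, part of AP-1, which can induce BCL2L11 in rodent neurons, rose by 1.40 ± 0.15 without histidine, 1.23 ± 0.15 at 12.5% on day 6 and 1.61 ± 0.15 at 12.5% on day 9 (adjusted p = 1.2e-07, 2.3e-06 and 6.5e-08, limma). E2F1, a cell cycle factor, fell by 1.16 ± 0.08 without histidine and by 0.73 ± 0.08 at 12.5% on day 6 (adjusted p = 1.7e-10 and 8.3e-07, limma). Without histidine TP73 fell by 1.23 and FOXO1 by 0.56, while MYB rose by 0.26 (adjusted p = 1.5e-07, 0.0055 and 0.0090, limma). The FOXO1 and MYB calls were lost only without the keratin-high libraries. The part of these factors in the members' changes was not tested. DDIT3, a factor of the integrated stress response known to induce BCL2L11, fell by 0.77 ± 0.11 at 12.5% on day 6 and by 0.54 ± 0.11 on day 9 (adjusted p = 2.3e-05 and 0.0012, limma).

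**Figure D4:**
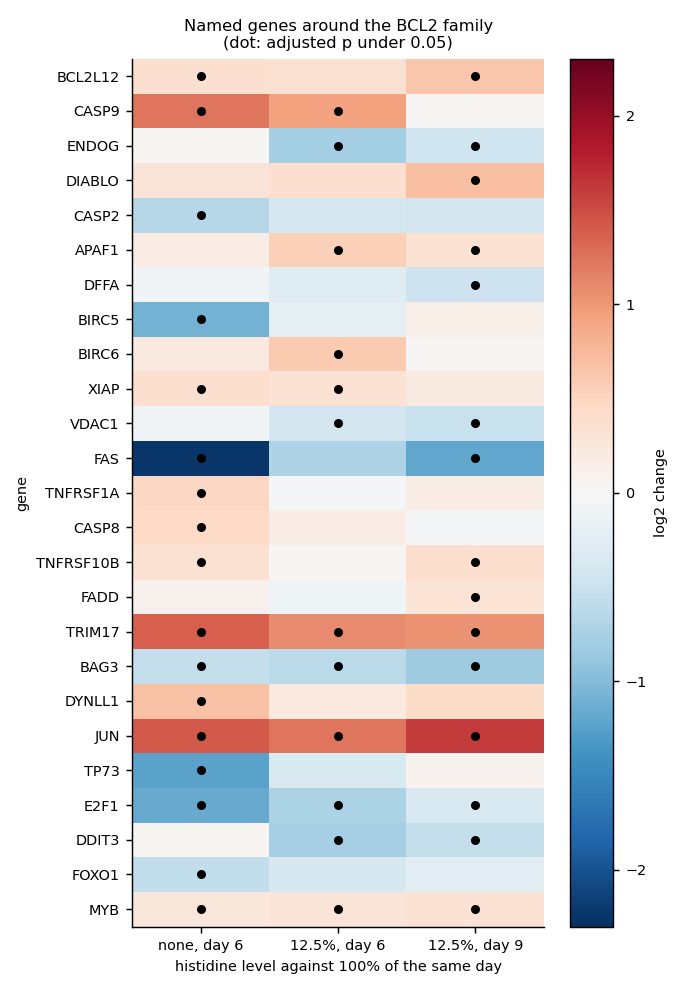
Log2 change against full medium of the same day, as colour (red higher, blue lower), for 25 named genes around the BCL2 family in 3 comparisons, with a dot where the adjusted p was under 0.05. JUN and TRIM17 are higher and BAG3 and E2F1 lower in all 3 columns.

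Over the 9 group means, the genes whose pattern was most like that of BID were TOMM6 (Pearson's r 0.992), YWHAE (0.990) and SNX17 (0.989), out of 10753 genes searched. For BCL2L1 they were TPP1 (0.967), SMYD5 (0.951) and RGS16 (0.948), and for BCL2L11 GABRR2 (0.934), NCAL1 (0.925) and SUOX (0.924). These values are descriptions over 9 points that share controls and scaling. Among the pairs of these 3 with other members, the highest r was 0.853 for BCL2L11 and BMF, ahead of 0.781 for BID and BAX, and the lowest was -0.811 for BID and BMF, ahead of -0.772 for BID and BCL2L11.

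On GRCh38.p14, per RefSeq, BCL2L11 spans chr2:111120914-111168445, BID chr22:17734138-17774665, BCL2L1 chr20:31664452-31723963, MCL1 chr1:150574558-150579610 and PMAIP1 chr18:59899996-59904305. Some reads of these genes cannot be told apart from those of neighbours, since the strand setting of the counting is not given in the sources used here. In GENCODE 29, BCL2L1 overlaps its antisense gene ABALON, which held between 3.43 and 95.8 normalized counts, and BCL2L11 lies within MIR4435-2HG on the opposite strand. MIR4435-2HG held 285, 320.4 and 344 normalized counts at 12.5% on day 6, against 236, 243 and 241 in full medium, and 189, 130.3 and 195 without histidine. On day 9 it held 209, 396 and 226 at 12.5% and 419, 352 and 354 at 25%, against 253, 308 and 246 in full medium. Of the groups where BCL2L11 rose, it was thus clear above full medium at 12.5% on day 6 and at 25% on day 9, clear below it without histidine and overlapping at 12.5% on day 9, and its part in the BCL2L11 results was not tested. MCL1 and BAK1 overlap ADAMTSL4-AS1 and GGNBP1, each under 15.0 in every library. The BAK1 pseudogene BAK1P1 reached 5.24.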

How the data were processed

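RNA of DND-41 cells went into strand-specific libraries, per the labels' protocols. Signal values deposited by the authors are normalized counts per gene. The submitters' processing notes name FastQC 0.11.9, kallisto 0.50.1, DESeq2 1.44.0 and GRCh38, and the annotation release and strand setting are not given here. Such scaling hides any difference in a cell's total RNA, and reads of near-identical copies may be split among them.

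Single steps per library made between 37.8% and 76.1% of values under 20 whole multiples within 0.05, so whole reads were not recovered, depth is known only as totals of normalized counts, and the planned count tests were not run.

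The 18799 genes that reached 10 in 2 or more libraries were tested. On log2 values (pseudocount 1), limma 3.58.1 (R 4.3.3) estimated 9 group means with a mean-variance trend, which left 16 residual degrees of freedom. Each comparison's p-values (two-sided) were adjusted by Benjamini-Hochberg over all genes, with a threshold of 0.05. The procedure was tested on simulated data that drew each gene independently, so changes shared by many genes in a library were not covered. Figures used matplotlib 3.10.9 in Python 3.11.15.

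The members, the gene lists, the ratios and the tests were chosen with earlier results of these data known. The named genes were the 10 members and, from each list, up to 6 genes past the threshold without histidine or at 12.5%, by size of change, whose higher group averaged 50 or more. Values are printed for some of those whose call was kept in all alternatives, and for FOXO1 and MYB. This choice was made after their values were seen, and the rest are counted. Some genes of these lists are not reported here. The difference between days at 50% was also added after values were seen. Replicate numbers were treated as names. Same-numbered libraries of different groups did not deviate together (mean correlation 0.003 over 92 pairs). Alternatives were pseudocounts of 0.5 and 8, other filters, upper-quartile and quantile scaling, no trend, library weights, a replicate block, a 5.8S ribosomal RNA covariate, a fit on the compared groups, and leaving out each library or the 6 libraries high in keratin.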

Additional observations from a re-analysis of the deposited data

Results flagged for a closer look

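BCL2L11 at 50% histidine moved in opposite directions on the 2 days. On day 6 all 3 libraries lay below the mean in full medium, with a change of -0.16, and on day 9 both libraries lay above it, with a change of 0.27. The day 9 change exceeded the day 6 change by 0.42 ± 0.13 (SE), and this difference was tested and did not pass (adjusted p = 0.969, limma across 18799 genes).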

How the results depend on the processing

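The number of members past the threshold mostly stayed within 1.5 times the one reported, with 140 counts inside that range and 28 outside it under the alternatives below, and 90 inside and 18 outside when single libraries were left out. Without histidine on day 6 (1 in the fit reported) the count was 2 with a pseudocount of 8, a filter at 50, upper-quartile scaling, library weights, the 5.8S covariate or only the compared groups, 3 with quantile normalization and 0 without the keratin-high libraries. At 12.5% on day 6 (3) it was 5 with the 5.8S covariate. At 25% on day 6 (2) it was 1 with no mean trend, 5 with library weights, 4 on the compared groups and 0 without the keratin-high libraries. At 12.5% on day 9 (2) it was 1 on the compared groups. At 25% on day 9 (5) it was 3 with no filter, no mean trend or the 5.8S covariate and 1 without the keratin-high libraries. For no histidine against 12.5% (2) it was 1 with no mean trend or on the compared groups and 4 with library weights. For the day 6 slope (3) it was 6 with library weights and 5 with the 5.8S covariate. In full medium between days (0) it was 1 with a filter at 50, upper-quartile or quantile scaling, library weights and on the compared groups. The causes of these moves were not tested. Leaving out the keratin-high libraries leaves 1 library in full medium and 1 at 50% on day 6, and 1 at 25% on day 9.

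Leaving out single libraries gave between 1 and 2 members without histidine, between 2 and 4 at 12.5% on day 6, between 0 and 2 at 25% on day 6, between 0 and 3 at 12.5% on day 9, between 2 and 4 at 25% on day 9, between 1 and 3 for no histidine against 12.5% and between 2 and 3 for the day 9 slope. The counts at 50%, between days and for the differences of days stayed at 0 in these fits. Where 1 library was left in a group, it was assumed to vary like the others. Of the single changes of members, BCL2L1 at 12.5% on day 9 reversed under quantile normalization, to 0.0087, and was called in neither fit. Upper-quartile scaling moved the median of all genes at 12.5% on day 6 to 0.13, and the share of rises among calls there to 55.6%, against 43.3% in the fit reported. Over all genes, leaving out the keratin-high libraries called 3243 (5611 in the fit reported) without histidine, 2482 (5072) at 12.5%, 917 (2577) at 25% and 2664 (5424) for the slope on day 6, 1245 (3415) at 25% on day 9 and 21 (408) between days. Library weights called 292 (0) at 50% on day 6, 4967 (2869) for no histidine against 12.5%, 1069 (408) between days and 133 (12) for the difference of days at 12.5%. The compared groups alone gave 1612 (2869) for no histidine against 12.5%, and no filter gave 266 (408) between days. Leaving out single libraries lowered 3 of these counts by more than 1.5 times. At 25% on day 6 (2577) it was 1262 without replicate 3 and 1398 without replicate 2 of that group. For no histidine against 12.5% (2869) it was 1758 and 1911 without replicates 3 and 2 of no histidine and 1850.0 without replicate 2 at 12.5%. Between days in full medium (408) it lay between 151 and 240.0 without any of the 3 day 6 libraries or replicate 2 or 3 of day 9. The differences of days and 50% on day 9, with 12 genes or fewer in the fit reported, varied between 0 and 41 in the other fits.

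With the replicate number as a block, the counts of members called were the same in each comparison, 3 at 12.5% on day 6 and 5 at 25% on day 9 among them. Only 7 of 21 libraries correlated best with their own number, so the numbers gave no pairing. Original read depth is not known from normalized counts, and 2 or 3 libraries a group limit the precision to the intervals given.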
